A study of Mus musculus with 6 samples.

Results

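The genes that carry signals from the T cell receptor to Ras, to NF-kB and to calcium and NFAT were compared between WT and HDAC11-/- Tregs. The members are 46 listed genes, and a member was measured where a probe set of the array was annotated with its symbol alone. By this rule 41 genes with 78 probe sets were measured, out of 12393 genes and 20380 probe sets with 1 symbol, and Lck, Itpr1, Malt1, Mapk3 and Ubash3a were not analysed here. The receptor chains hardly differed between the genotypes, 2 members of the Ras-MAPK branch, Mapk8 and Rasgrp1, were 2.73-fold and 2.69-fold lower in HDAC11-/- Tregs on 1 of the 3 probe sets of each gene, and no member was called higher. With the mean of all probe sets of a gene neither was called.

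The cells were CD4+CD25+ T cells separated with magnetic beads from mice, a fraction enriched for Tregs that may hold other cells. The HDAC11-/- group comprised 3 samples from mice labelled fl-HDAC11/Foxp3cre, in which a floxed Hdac11 gene is cut by a Cre recombinase expressed from the Foxp3 locus, and the control group comprised 3 samples from wild type C57BL6 mice. The controls are not said to carry Cre, so the Hdac11 deletion and the Cre allele cannot be told apart. The methods describe young adult mice, with the floxed and Cre strains bred onto the same background, and the labels name no treatment. Nothing says that each array was a mouse of its own, so the p-values measure the spread between these samples. HDAC11 is the single class IV histone deacetylase.

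In resting T cells the CD3 chains wait beside the antigen receptor, and on engagement the Src-family kinases Lck and Fyn phosphorylate them so that Zap70 can dock. Zap70 then phosphorylates the scaffold Lat, on which phospholipase C gamma and exchange factors for Ras gather. The lipase makes diacylglycerol, which turns on Rasgrp1 and protein kinase C theta, and inositol trisphosphate, which empties calcium stores so that Stim1 opens the Orai1 channel. Calcium activates calcineurin, the phosphatase of the Ppp3 genes, which sends NFAT into the nucleus. The kinase Csk, the phosphatases Ptpn22 and Ptpn6 and the diacylglycerol kinases hold these steps back, while the phosphatase CD45 keeps the Src-family kinases ready to act. In Tregs this pathway is needed for development in the thymus and for suppressive function.

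The values are RMA expression on the log2 scale, and each gene is first described by its brightest probe set over the 6 arrays. Differences are HDAC11-/- minus WT. A gene passed the test at a limma p under 0.05 after Benjamini-Hochberg adjustment over all 22626 probe sets, and it was called where the difference was also at least 1.5-fold, or 0.58 on the log2 scale. Arrays of the same genotype correlated at r of at least 0.997 and arrays of different genotypes at no more than 0.988. Markers of other cells differed between the genotypes. The summed level of 10 B cell markers fell from a range of 10.88 to 10.92 in WT to 9.81 to 9.87 in HDAC11-/-, with 6 called lower and 3 within the bacterial control range in both genotypes. The sum of 9 dendritic cell markers went from 12.49 to 12.54 in WT to 11.33 to 11.37 in HDAC11-/-, with 5 called lower. These were Batf3 and the MHC class II pathway genes H2-Aa, H2-Ab1, H2-Eb1 and Cd74. Itgax and Zbtb46 differed by -0.39 and -0.26 without a call, and Flt3 (0.11) and Xcr1 (-0.11) did not pass. The sum therefore does not single out dendritic cells. Of 8 CD8 T and NK cell markers 2 were called lower, with sums of 11.05 to 11.10 and 10.76 to 10.86. The 2 were Ncr1 (-1.04) and Fcer1g (-1.32), and Klrd1, Eomes and Klrk1 were lower past the adjusted p without a call. Cd8b1 was 0.42 higher (limma adjusted p = 0.00671), and Cd8a (-0.04) and Nkg7 (0.00) did not pass. The lower sum therefore does not single out CD8 T cells. Of 10 monocyte and macrophage markers 3 were called higher, with sums of 8.26 to 8.33 and 8.46 to 8.68 and 5 genes within the control range in both genotypes. The 3 were C1qa, C1qb and C1qc, each within the control range on the WT arrays, so their folds are not readable. Lyz2, Cd68 and Fcgr1 were higher by 0.53, 0.37 and 0.30 without a call (limma adjusted p = 0.00032, 0.0217 and 0.0218). Of these Lyz2 was within the control range on the WT arrays and Fcgr1 in both genotypes, while Cd68 was above it in both. Csf1r, Adgre1, Itgam and Cd14 did not pass the adjusted p. In all, 6 of the 10 were higher past the adjusted p and 0 lower. The sums of 6 CD4 T cell markers were 14.90 to 14.94 and 14.92 to 14.95. The Treg gene Foxp3 lay within the control range in both genotypes, so this probe set does not show the Treg label. With it, 7 Treg markers summed to 13.93 to 13.96 in WT and 14.04 to 14.08 in HDAC11-/-. They did not rise as a set: Ctla4 differed by 0.50, Ikzf2 by -0.35 and Izumo1r by -0.20 (limma adjusted p = 0.000269, 0.0453 and 0.0137), and 4 did not pass. Hdac11 itself read 6.31, 6.36 and 6.53 in WT and 6.36, 6.28 and 6.22 in HDAC11-/- (difference -0.12, limma adjusted p = 0.222), and it does not check the deletion, since the sources used here do not place its probes.

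Across the 41 measured members, 10 were higher and 12 were lower past the limma adjusted p, and 19 did not pass. Over all 12393 genes 22.9% were higher and 23.2% lower, so the members moved about as often as other genes, with 53.7% past the adjusted p against 57.3% of the 8692 genes at least as bright as the dimmest member. With the 1.5-fold threshold limma called 0 members higher and 2 lower, where the shares of all genes are 3.46% and 3.72%. At an unadjusted p under 0.05, 13 members were higher, of which 0 reached 1.5-fold, and SAM, the test of the study's methods, also called 0 members higher and 2 lower. The median difference was -0.02 for the members and -0.04 for all genes, and the median size of the difference was 0.17 and 0.19. For 37 of the 41 members, or 90.2%, the 95% confidence interval lay wholly inside 1.5-fold, the exceptions being Mapk8, Rasgrp1, Dgkz and Fyn. The share was 82.2% of all genes and 79.9% of the 8692 genes at least as bright as the dimmest member. The arrays of both genotypes overlapped in 8 members, Nfatc2, Orai1, Stim1, Csk, Nck1, Cd247, Cd3e and Cd3g. They overlapped in 5232 of the 12393 genes and in 2579 of the 8692 at least as bright as the dimmest member. In these bulk samples fewer cells that express a gene and less RNA per cell cannot be told apart. The counts of small differences move with the scale. When the arrays were set to the same mean of 10 reference genes, the median of all genes shifted by -0.17. On that scale 3 members were higher and 24 lower past the adjusted p. The reference genes were not constant themselves: 5 of the 10 were higher in HDAC11-/- past the adjusted p and 0 lower, with a median difference of 0.14. Without HDAC11-/- replicate 1, 5 members in place of 10 were higher.

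**Figure D1:**
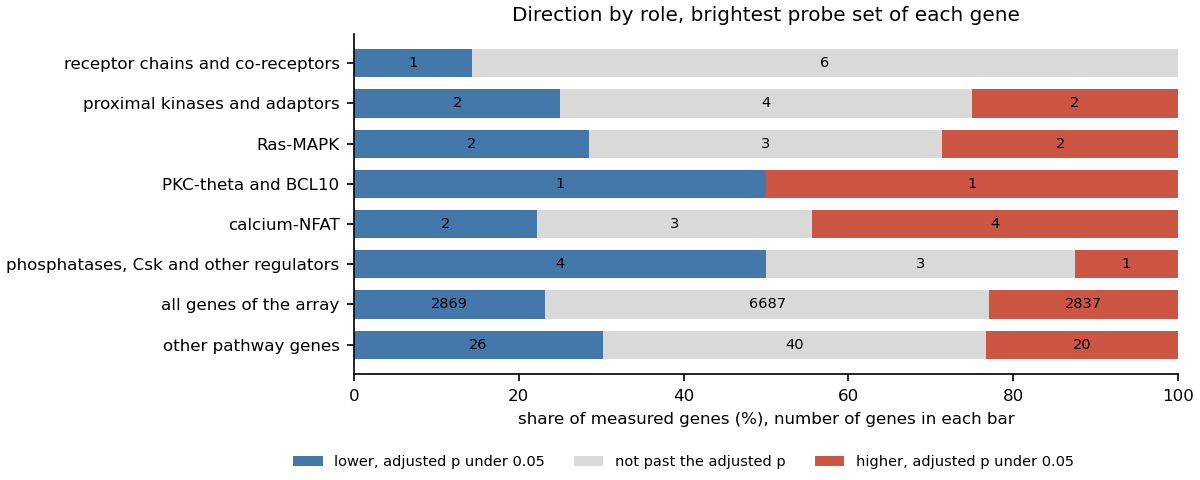
Share of measured genes (%) that were lower, not past the limma adjusted p of 0.05, or higher in HDAC11-/- Tregs, by role of the member genes, for all genes of the array and for the other genes of the pathway, with the number of genes printed in each bar. 6 of 7 receptor genes did not pass, 4 of 8 phosphatases, Csk and other regulators were lower, and 4 of 9 calcium-NFAT genes were higher.

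The receptor chains and co-receptors were the steadiest of the 6 roles, with 1 of 7 past the limma adjusted p and a median size of difference of 0.04. Cd3e, a signalling chain of the receptor complex, had levels of 12.28, 12.26 and 12.33 in WT and 12.24, 12.29 and 12.27 in HDAC11-/-. The groups interleave, and the difference of -0.02 had a 95% confidence interval of -0.13 to 0.09 (adjusted p = 0.736). Its partner Cd3g lay at 12.65 in both genotypes, with an interval of -0.09 to 0.10. Cd3d differed by 0.09 (adjusted p = 0.135) and Cd247, the zeta chain that carries most of the phosphorylation motifs, by 0.04 (adjusted p = 0.508). Cd247 had levels of 11.07, 11.18 and 11.16 in WT and 11.15, 11.17 and 11.23 in HDAC11-/-. The adhesion receptor Cd2 and the co-receptor-like Cd6 differed by -0.12 (adjusted p = 0.0553) and -0.04 (adjusted p = 0.452). Only Cd4 of this group passed the test. Cd4, the co-receptor that brings Lck to the complex, read 10.50, 10.54 and 10.52 in WT and 10.20, 10.21 and 10.20 in HDAC11-/-, without overlap, and fell by 0.32 ± 0.04 (SE, adjusted p = 0.00121). Its dimmer probe set gave -0.00 (SE 0.10).

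Of 8 proximal kinases and adaptors, 2 were lower, 2 were higher and 4 did not pass the limma adjusted p. Fyn, a Src-family kinase, had levels of 11.72, 11.66 and 11.60 in WT and 11.22, 11.23 and 11.11 in HDAC11-/-, and all 3 HDAC11-/- arrays lay below all WT arrays. It fell by 0.47 ± 0.06 (SE, adjusted p = 0.000945), under the 1.5-fold threshold, and by 0.15 on its other probe set (adjusted p = 0.0303). Zap70, the kinase that docks on the phosphorylated chains, read 11.63, 11.61 and 11.60 in WT and 11.60, 11.58 and 11.54 in HDAC11-/- on its brightest probe set. The difference of -0.04 was within the interval of -0.14 to 0.06 (adjusted p = 0.472). The scaffold Lat fell by 0.15 (adjusted p = 0.0347). Its partner adaptor Lcp2, also called SLP-76, differed by -0.05 and the adaptor Nck1, which links the receptor to actin, by -0.01, and neither passed. Vav1, an exchange factor for Rac, had levels of 8.59, 8.74 and 8.75 in WT and 9.01, 8.89 and 8.98 in HDAC11-/-. Every HDAC11-/- array was above every WT array, and the rise was 0.26 ± 0.06 (SE, adjusted p = 0.0146). Sh2d1a, the adaptor SAP of the SLAM receptors, rose by 0.25 (adjusted p = 0.00782). Plcg1, the lipase that splits the pathway into its diacylglycerol and calcium arms, differed by -0.27 (adjusted p = 0.0914) on a probe set whose means of 5.35 and 5.09 are close to the highest bacterial control of each array, between 5.06 and 5.48.

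**Figure D2:**
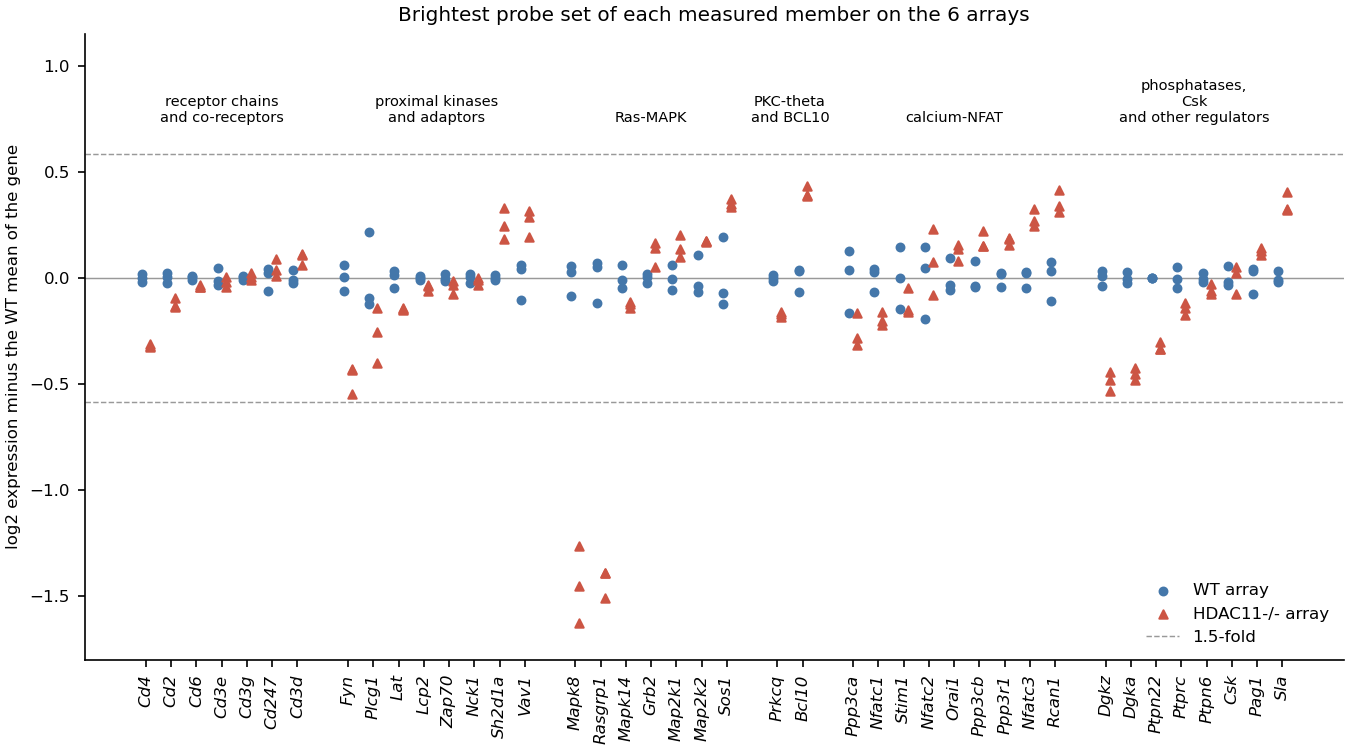
Level of the brightest probe set of each measured member on each of the 6 arrays, as log2 expression minus the mean of the 3 WT arrays of that gene, grouped by role and ordered within a role by the difference. Circles are WT and triangles HDAC11-/- arrays, and dashed lines mark 1.5-fold. Mapk8 and Rasgrp1 stand below the lower line on all 3 HDAC11-/- arrays, and no member reaches the upper line.

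The Ras-MAPK branch held both called members. Rasgrp1, the diacylglycerol-activated exchange factor that loads Ras with GTP in lymphocytes, had levels of 9.20, 9.18 and 9.01 in WT and 7.74, 7.74 and 7.62 in HDAC11-/-. The genotypes were separated by more than 1 unit, against SDs of 0.10 and 0.07 within them. Rasgrp1 fell by 1.43 ± 0.07 (SE), with a 95% confidence interval of -1.59 to -1.26 (limma adjusted p = 2.57e-05). Mapk8, which encodes the stress kinase JNK1, read 9.05, 8.94 and 9.08 in WT and 7.76, 7.40 and 7.57 in HDAC11-/-. It fell by 1.45 ± 0.10 (SE), with an interval of -1.68 to -1.22 (adjusted p = 9.08e-05). For both genes this holds for 1 probe set of 3. The other probe sets of Mapk8 differed by 0.04 and -0.21 (adjusted p = 0.727 and 0.0639). The one that differed by 0.04 had means of 8.13 in WT and 8.17 in HDAC11-/-. On the HDAC11-/- arrays it was brighter than the called probe set, whose mean there was 7.58. The other probe sets of Rasgrp1 lay between 5.02 and 5.73 and so near the bacterial controls. They differed by -0.07 and 0.29 (adjusted p = 0.402 and 0.0899). With the mean of all probe sets of a gene the falls were 0.40 for Rasgrp1 and 0.54 for Mapk8, and neither was called.

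The other Ras-MAPK members differed by less than 1.5-fold, and 2 of 5, Sos1 and Map2k2, passed the test, both higher. Sos1, the exchange factor for Ras that Grb2 brings to Lat, had levels of 6.71, 6.76 and 7.02 in WT and 7.20, 7.18 and 7.16 in HDAC11-/-. No array of one genotype reached into the other, and the rise was 0.35 ± 0.09 (SE, limma adjusted p = 0.0158). Map2k2, a kinase of the ERK arm, rose by 0.17 (adjusted p = 0.0481) and differed by 0.04 (adjusted p = 0.678) on its dimmer probe set. Map2k1, its close relative, differed by 0.15 (adjusted p = 0.0638). The adaptor Grb2 differed by 0.12 (adjusted p = 0.0901) on its brightest probe set, while the other was 0.48 higher (adjusted p = 0.000615). Mapk14, the p38 alpha kinase, differed by -0.13 (adjusted p = 0.0681).

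In the protein kinase C theta arm, which leads to NF-kB through BCL10 and MALT1, the 2 measured members went opposite ways. Bcl10, an adaptor that works with MALT1, had levels of 10.38, 10.39 and 10.28 in WT and 10.79, 10.74 and 10.75 in HDAC11-/-. All HDAC11-/- arrays were higher, by 0.40 ± 0.05 (SE, limma adjusted p = 0.000979), which is the largest rise among the 41 members by their brightest probe sets. Its other 2 probe sets gave rises of 0.37 and 0.44 (adjusted p = 0.0051 and 0.00184), so all 3 moved the same way. Prkcq, which encodes protein kinase C theta, read 11.85, 11.82 and 11.83 in WT and 11.66, 11.65 and 11.67 in HDAC11-/-. The arrays of each genotype lay close together, and the fall was 0.17 ± 0.04 (SE, adjusted p = 0.0143).

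Among 9 calcium-NFAT members, 4 were higher, 2 were lower and 3 did not pass the limma adjusted p, and for all 9 the 95% confidence interval lay inside 1.5-fold on the brightest probe set. The channel genes did not pass: Orai1, the pore of the store-operated channel, differed by 0.12 (adjusted p = 0.126) and Stim1, its calcium sensor, by -0.12 (adjusted p = 0.268). Calcineurin has a catalytic and a regulatory subunit. Ppp3ca, the alpha catalytic subunit, read 9.36, 9.28 and 9.07 in WT and 9.07, 8.92 and 8.95 in HDAC11-/-, so that the lowest WT and the highest HDAC11-/- array were level. The fall of 0.26 ± 0.09 (SE) barely passed (adjusted p = 0.0478). Ppp3cb, the beta catalytic subunit, rose by 0.17 (adjusted p = 0.0385) and differed by -0.02 (adjusted p = 0.881) on its dimmer probe set. Ppp3r1, the regulatory subunit, read 10.33, 10.40 and 10.40 in WT and 10.56, 10.56 and 10.53 in HDAC11-/-, a rise of 0.18 ± 0.04 (SE, adjusted p = 0.0174) with no overlap.

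The NFAT genes themselves did not move as a group. Nfatc1 fell by 0.20 (limma adjusted p = 0.0183), Nfatc3 rose by 0.28 (adjusted p = 0.00380), and Nfatc2 did not pass. The dimmer probe sets of Nfatc1 and Nfatc3 differed by 0.03 and -0.38 and did not pass (adjusted p = 0.626 and 0.213). Nfatc2, the factor also known as NFAT1, had levels of 7.15, 7.06 and 6.81 in WT and 6.92, 7.24 and 7.08 in HDAC11-/-. The arrays of the genotypes are mixed, and the difference of 0.07 had an interval of -0.20 to 0.34 (adjusted p = 0.625). Rcan1, a calcineurin inhibitor that NFAT itself induces, had levels of 7.65, 7.60 and 7.46 in WT and 7.99, 7.88 and 7.91 in HDAC11-/-. It had the largest rise of this group, 0.36 ± 0.06 (SE, adjusted p = 0.00446), and its dimmer probe set, within the bacterial control range in both genotypes, showed none that could be read.

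Of 8 phosphatases, kinases and adaptors that tune the receptor signal, 4 were lower, 1 was higher and 3 did not pass the limma adjusted p, and none was called. The diacylglycerol kinases Dgka and Dgkz, which remove the lipid that activates Rasgrp1 and protein kinase C theta, were both lower. Dgkz read 13.25, 13.30 and 13.32 in WT and 12.85, 12.81 and 12.76 in HDAC11-/-, and Dgka read 13.06, 13.04 and 13.09 against 12.59, 12.64 and 12.61. Neither gene had arrays that overlapped, and the falls were 0.48 ± 0.05 (SE, adjusted p = 0.000436) and 0.45 ± 0.04 (SE, adjusted p = 0.000378). The second probe set of Dgkz fell by 0.34 (adjusted p = 0.0013). Ptpn22, a phosphatase that works with Csk on Lck and Fyn, fell by 0.32 (adjusted p = 0.00111), and Ptprc, the phosphatase CD45, which activates Lck and Fyn, by 0.15 (adjusted p = 0.0435). Sla, the adaptor SLAP that sends receptor chains to degradation, had levels of 11.23, 11.17 and 11.19 in WT and 11.60, 11.52 and 11.52 in HDAC11-/-. It was the one regulator that rose, by 0.35 ± 0.05 (SE, adjusted p = 0.00142), and by 0.38 on its other probe set. Csk (0.00, adjusted p = 0.997), the phosphatase Ptpn6 or SHP-1 (-0.06, adjusted p = 0.330) and the Csk anchor Pag1 (0.12, adjusted p = 0.0834) did not pass. Dgka, Dgkz and Fyn crossed the 1.5-fold threshold when the arrays were scaled on the reference genes, at -0.62, -0.65 and -0.64. Ptprc and Ptpn6 are expressed in most white blood cells, and the part of the lower B cell and dendritic cell markers in the lower members was not tested.

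How far a member appears to differ depends on the probe set. Of the 26 members with more than 1 probe set, 4 had probe sets past the limma adjusted p in opposite directions, or 15.4%, against 8.31% of 4956 genes. In 8 members, or 30.8% against 18.1% of those genes, the differences of the probe sets were spread over at least 1.5-fold. Counting any probe set, 5 members were called lower, where 6.66% of all genes are, and 0 higher, where 5.31% are. The 3 added to Mapk8 and Rasgrp1 in this way are Ppp3r1, Zap70 and Cd247. All probe sets were called in 0 of the 26 and in 109 of the 4956 genes. All passed the adjusted p in the same direction in 4 of the 26, Bcl10, Dgkz, Fyn and Sla, and in 912 of the 4956, so neither count sets the members apart. The sources used here do not place the probe sets in the transcripts, and why they differ was not tested.

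**Figure D3:**
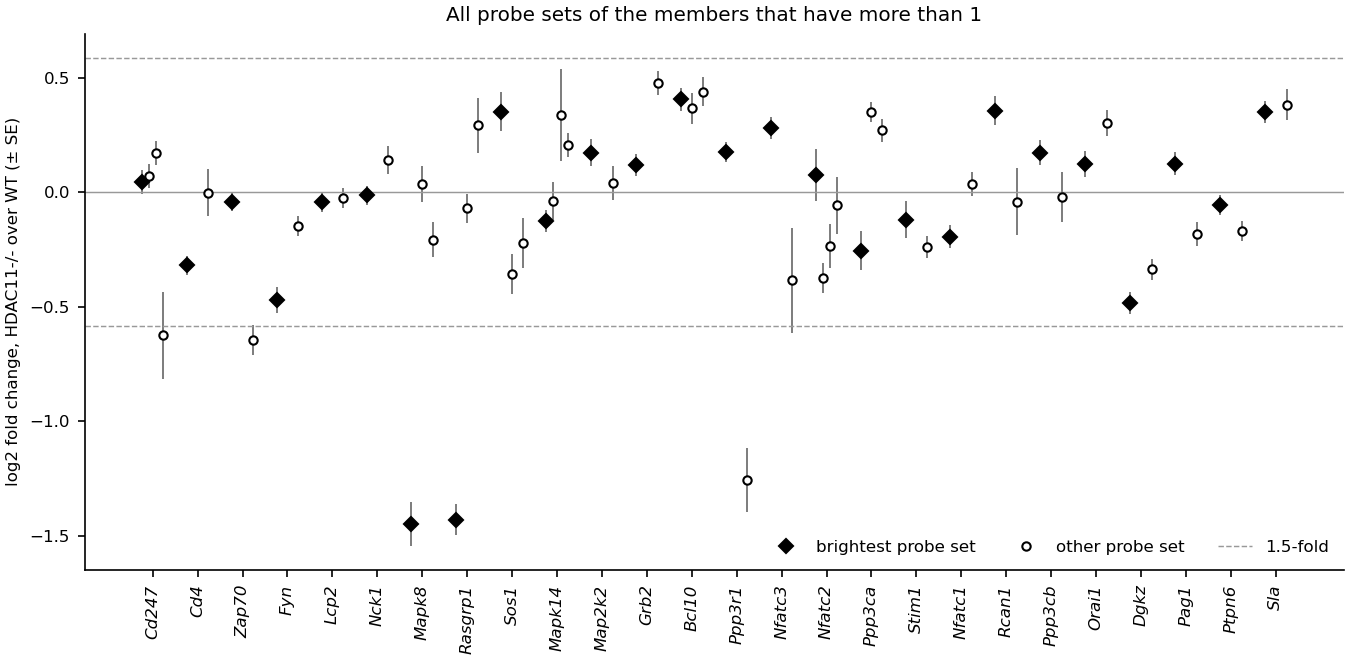
Difference in log2 expression, HDAC11-/- minus WT, for every probe set of the 26 members that have more than 1, with bars of 1 SE. Diamonds are the brightest and open circles the other probe sets of a gene, and dashed lines mark 1.5-fold. The probe sets of Rasgrp1, Mapk8 and Ppp3r1 are spread over more than 1 unit, while the 3 of Bcl10 lie between 0.37 and 0.44.

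Ppp3r1 showed the widest split between probe sets that both passed the test. Its dimmer probe set read 8.75, 8.96 and 8.67 in WT and 7.82, 7.45 and 7.33 in HDAC11-/-, a fall of 1.26 ± 0.14 (SE, limma adjusted p = 0.000649) beside the rise of 0.18 on the brighter one. The dimmer probe set of Zap70 read 9.27, 9.37 and 9.46 in WT and 8.76, 8.76 and 8.64 in HDAC11-/-. No array overlapped there, and the fall was 0.65 ± 0.07 (SE, adjusted p = 0.000468), while the brighter probe set differed by -0.04. Ppp3ca had the reverse pattern, with rises of 0.35 and 0.27 on its dimmer probe sets (adjusted p = 0.00101 and 0.00511) and the fall of 0.26 on the brightest. Sos1 fell by 0.36 (adjusted p = 0.0155) on a probe set within the bacterial control range in both genotypes, so that this fall has no readable size. The dimmest probe set of Cd247 read 5.36, 4.91 and 5.71 in WT and 4.73, 4.80 and 4.58 in HDAC11-/-. All 3 HDAC11-/- values and 2 of the 3 WT values did not exceed the brightest bacterial control of their array, so the call (adjusted p = 0.0344) has no readable fold, and another probe set of Cd247 was 0.17 higher (adjusted p = 0.0358). Dimmer probe sets past the adjusted p where the brightest was not also include those of Nfatc2 (-0.37, adjusted p = 0.00407), Stim1 (-0.24, adjusted p = 0.0069), Orai1 (0.30, adjusted p = 0.00543), Pag1 (-0.18, adjusted p = 0.0266) and Ptpn6 (-0.17, adjusted p = 0.0162).

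**Figure D4:**
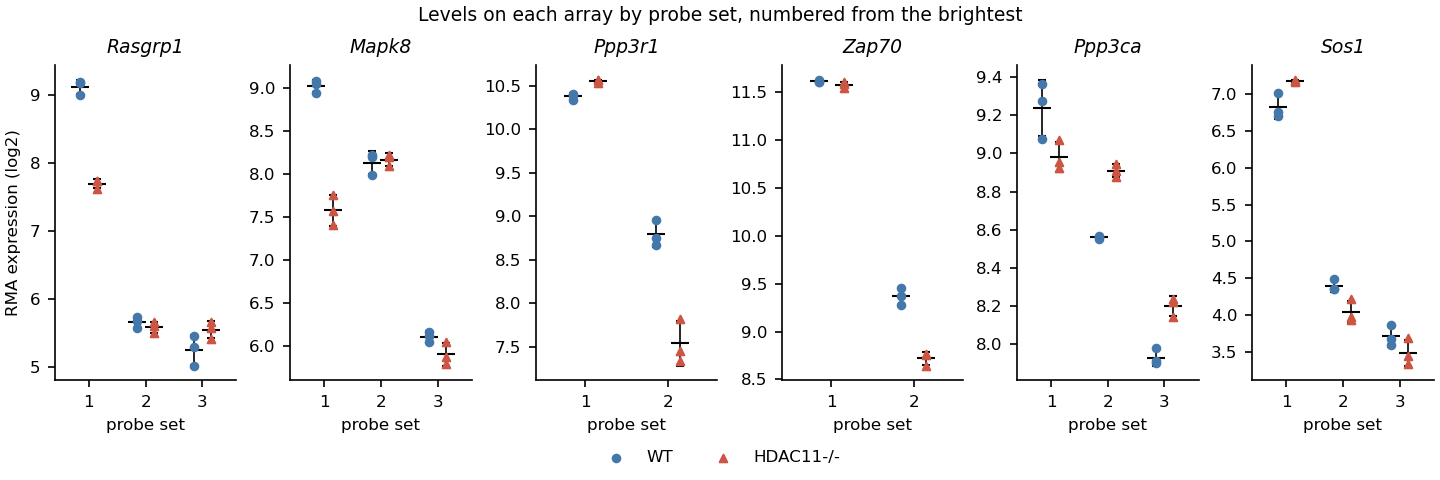
RMA expression (log2) on each array for each probe set of 6 members, numbered from the brightest, with WT as circles, HDAC11-/- as triangles, and the mean ± SD (n = 3) as black lines. Each panel has its own axis, which does not start at 0. The fall of Rasgrp1 and of Mapk8 is on the brightest probe set, and that of Ppp3r1 and of Zap70 on the dimmer one.

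The promoters of 3 members that have 1 start in the table are shown. Rasgrp1 is one of the called genes, Bcl10 had the largest rise on the brightest probe set, and Ppp3r1 had probe sets past the adjusted p in opposite directions. Mapk8 has more than 1 start and is not shown. The sequences are the 250 bases before the start, 5′ to 3′ on the strand of the gene, from RefSeq on GRCm38.p6. They lie at chr2:117342878-117343127 on the minus strand for Rasgrp1, chr3:145924012-145924261 on the plus strand for Bcl10 and chr11:17159048-17159297 on the plus strand for Ppp3r1. Capitals mark matches on either strand to the NFAT core GGAAA or the GC box GGGCGG.
Rasgrp1: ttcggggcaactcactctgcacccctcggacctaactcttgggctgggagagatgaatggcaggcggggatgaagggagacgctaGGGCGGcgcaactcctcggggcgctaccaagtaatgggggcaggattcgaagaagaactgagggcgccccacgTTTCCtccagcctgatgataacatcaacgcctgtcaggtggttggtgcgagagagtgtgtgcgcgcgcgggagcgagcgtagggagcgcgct
Bcl10: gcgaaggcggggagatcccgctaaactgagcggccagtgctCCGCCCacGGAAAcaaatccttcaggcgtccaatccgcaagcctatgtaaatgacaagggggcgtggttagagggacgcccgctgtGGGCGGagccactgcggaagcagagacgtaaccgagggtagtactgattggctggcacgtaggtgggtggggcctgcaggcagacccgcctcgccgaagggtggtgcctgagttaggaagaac
Ppp3r1: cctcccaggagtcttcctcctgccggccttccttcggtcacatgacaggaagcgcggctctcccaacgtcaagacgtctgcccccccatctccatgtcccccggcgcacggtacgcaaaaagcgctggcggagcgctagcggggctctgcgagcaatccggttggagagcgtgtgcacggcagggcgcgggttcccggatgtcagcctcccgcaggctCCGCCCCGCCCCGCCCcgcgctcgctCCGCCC
Rasgrp1 and Bcl10 each hold 1 match to the NFAT core, and Ppp3r1 holds none in this window. The GC box matches once in Rasgrp1, 2 times in Bcl10 and 4 times in Ppp3r1, where neighbouring matches overlap. Of the 41 measured members 33 had promoter entries, with 49 starts. The NFAT core was found in 32 of these starts, or 65.3%, and in 55.6% of all 32851 starts. The GC box was found in 53.1% of the member starts and 32.7% of all starts. The AP-1 motif TGANTCA was found in 1 member start, that of Rcan1, or 2.04%, against 6.75% of all starts. A match is a run of letters and not a bound site.

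Beyond the 41 members, 86 of 114 other genes listed for the pathway were measured. Of these 20 were higher and 26 lower past the limma adjusted p, with a median of -0.02, where the shares of all genes are 22.9% and 23.2%. Of the 86, 2 were called higher and 4 lower, where the shares of all genes are 3.46% and 3.72%. Nfat5, the NFAT relative that answers to osmotic stress and not to calcineurin, fell by 0.81 ± 0.05 (SE, adjusted p = 4.91e-05), from 9.78, 9.84 and 9.85 in WT to 8.98, 9.01 and 9.04 in HDAC11-/-. Its other probe sets differed by -0.23, -0.15 and -0.55 and were not called (adjusted p = 0.134, 0.553 and 0.00729). Their means, between 3.33 and 4.26, were below the highest bacterial controls. Araf, a Raf-family kinase upstream of the ERK arm, fell by 0.61 ± 0.04 (SE, adjusted p = 0.000123). Plcg2, the phospholipase C gamma of B cells, fell by 0.87 ± 0.06 (SE, adjusted p = 0.000123) beside the lower B cell markers, whose part in this was not tested. Cbl, a ubiquitin ligase that limits receptor signals, fell by 0.69 ± 0.21 (SE, adjusted p = 0.0358), and its arrays of the same genotype were far apart, at 10.18, 9.77 and 9.46 in WT and 9.45, 9.01 and 8.89 in HDAC11-/-. Its call was kept in 2 of the 6 fits that left out 1 array, and its other probe set was 0.31 higher (adjusted p = 0.0018). Trat1, an adaptor bound to the receptor complex, rose by 0.70 ± 0.08 (SE, adjusted p = 0.000665), and Spred2, an inhibitor of the Ras to Raf step, rose by 0.59 ± 0.05 (SE, adjusted p = 0.000231). The call of Spred2 was kept in 3 of the 6 fits without 1 array, and its other probe set differed by -0.19 (adjusted p = 0.0573). Scaled on the reference genes, which were themselves higher by a median of 0.14, Trat1 and Spred2 were at 0.54 and 0.42 and no longer called.

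Genes that T cell receptor signals are known to induce were measured for 15 of 17 listed. Of the 15, 7 were higher and 2 lower past the limma adjusted p, with a median of 0.02, where the shares of all genes are 22.9% and 23.2%. The call was reached by 5 higher and 0 lower, where the shares of all genes are 3.46% and 3.72%. The orphan nuclear receptor gene Nr4a1, also called Nur77 and used as a reporter of receptor signals, went from 10.72, 10.67 and 10.71 in WT to 12.45, 12.55 and 12.57 in HDAC11-/-, a rise of 1.83 ± 0.05 (SE, adjusted p = 3.28e-06). Its relative Nr4a2 rose by 1.97 ± 0.16 (SE, adjusted p = 0.000191) on one probe set and differed by 0.06 (adjusted p = 0.441) on the other, which is the brighter on the WT arrays. The place of Nr4a2 among the 5 called genes therefore depends on the choice of probe set. The third relative, Nr4a3, fell by 0.25 (adjusted p = 0.0423). Myc, a growth regulator, and the cytokine genes Ifng and Il2 were also called, with rises of 0.72, 0.71 and 0.61, and fell below 1.5-fold at 0.55, 0.54 and 0.44 when scaled on the reference genes. The call of Il2 was kept in 4 of the 6 fits without 1 array. Egr1 and Irf4 rose by 0.44 and 0.42 (adjusted p = 0.000408 and 0.000593), and Tnf fell by 0.48 (adjusted p = 0.000712). The remaining 6, Egr2, Egr3, Tnfrsf9, Tnfrsf4, Il2ra and Cd5, did not pass.

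**Figure D5:**
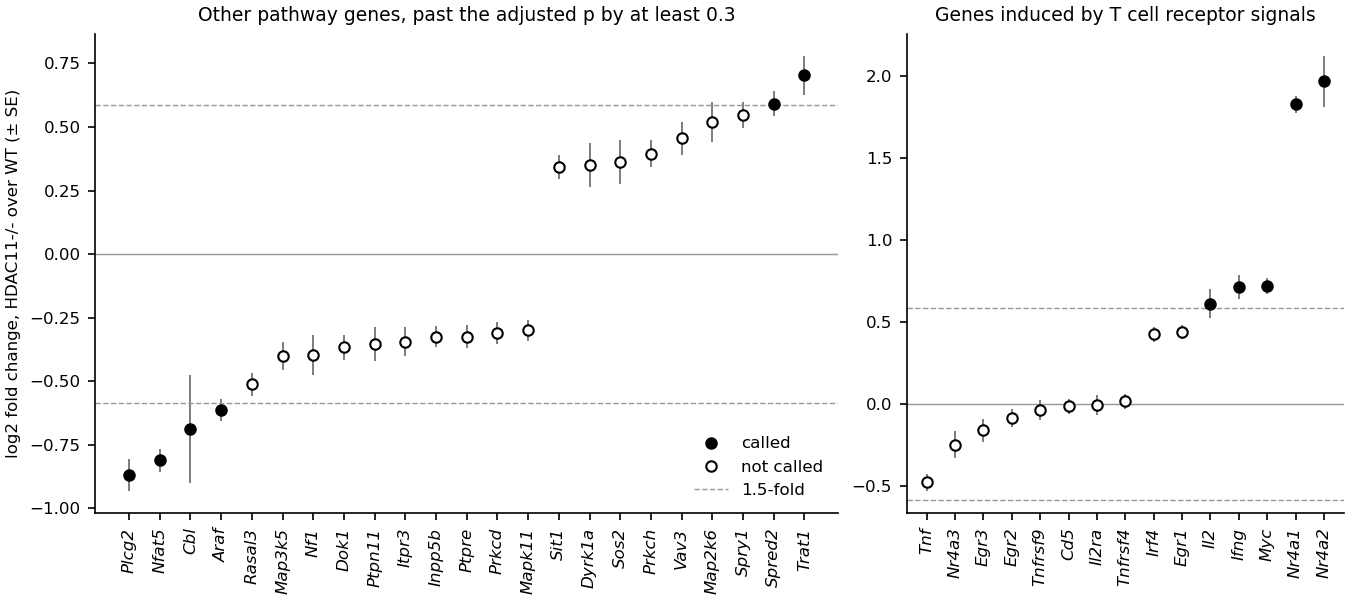
Difference in log2 expression, HDAC11-/- minus WT, with bars of 1 SE. On the left are the genes of the wider pathway list past the limma adjusted p by at least 0.3, and on the right the 15 measured genes induced by T cell receptor signals. Filled points are called and dashed lines mark 1.5-fold. Nr4a1 and Nr4a2 stand near 2, at 1.83 and 1.97, and Plcg2 and Nfat5 at -0.87 and -0.81.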

How the data were processed

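RNA from 6 samples was amplified, labelled with biotin and hybridised to Affymetrix Mouse430A arrays. The authors applied RMA normalization and deposited its log2 output, which was used as it stands. The sources used here name no version of the probe definitions. Of 22671 probe sets 45 controls were left out, and 20380 of the others carried 1 gene symbol, 691 several and 1555 none in the platform annotation. A probe set annotated to Ppp3r1 together with another gene was not used.

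The 22626 probe sets were compared between genotypes in limma 3.58.1 (lmFit, then eBayes) under R 4.3.3. Genotype was the single factor and Benjamini-Hochberg adjustment ran over all of them. The brightest probe set over the 6 arrays stood for a gene, dim ones included. With no detection calls, values at or below the highest of 27 bacterial control probe sets of the same array were taken as within the control range. The members, the gene lists and the tests were chosen with earlier results of these data known. Every member is named. Values on every array are given for members with a called probe set, for the largest change in each direction past the adjusted p in each role, and for Cd3e, Cd4, Zap70, Ppp3ca and Nfatc2. Dgka was added after its values were seen, as were the array values of Nr4a1, Nfat5 and Cbl. Of the other lists the called genes are named, and further ones were chosen after their values were seen.

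On simulated data for this comparison, with 22626 probe sets in the fit, limma called 44 of 50 probe sets changed 2-fold, 22 of 50 changed 1.5-fold and 3 of 22426 unchanged. In the simulation 22426 probe sets were unchanged, whereas 46.0% of genes passed the adjusted p in the data. Its rates are therefore not those of these arrays. A true change of 1.5-fold lies at the call threshold itself, so that estimates fall on either side of it. Precision is limited by the number of arrays, whose median SD was 0.09 among WT and 0.07 among HDAC11-/- samples. The alternatives were SAM with all 20 labelings, a trended robust prior, scaling on reference genes or bacterial controls, array weights, a 2-fold threshold, a replicate block, other choices of probe set, a filter on dim probe sets, and fits with 1 array left out. Promoter sequences are those of RefSeq on GRCm38.p6. Figures were drawn with matplotlib 3.10.9.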

Additional observations from a re-analysis of the deposited data

How the results depend on the processing

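Mapk8 and Rasgrp1 were called under every alternative test, scale, filter and left-out array, with leave-one-out differences of -1.54 to -1.36 and -1.49 to -1.39. The exceptions were in how a gene was represented. With the mean of all probe sets 0 members were called lower, and with shared-transcript suffixes left out 1 was, because the called probe set of Rasgrp1 carries such a suffix. No alternative chose the probe set by the HDAC11-/- arrays, where another probe set of Mapk8 was the brighter. Counting any probe set, 5 were called lower and 20 were lower past the adjusted p. Scaled on the reference genes, 5 were called lower, and 3 were higher and 24 lower past the adjusted p. The median was then -0.19, where the median of all genes was -0.21. This scale rests on genes that were not constant, since 5 of the 10 were themselves higher past the adjusted p. SAM passed 7 members lower in place of 12. Leaving out 1 array gave 5 to 10 members higher past the adjusted p.

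Of 252 values of 17 members under the alternatives, 235 kept their direction and side of the threshold. Part of this count was fixed in advance. The trended robust prior and the replicate block cannot change a difference in this balanced design. Nor can the mean of all probe sets where a gene has a single one. The dim filter and the choice by WT arrays kept the same probe sets for these members. Signs turned for differences near 0 or with split probe sets. Cd3e was 0.00382 with bacterial controls and between -0.0370 and 0.00226 with 1 array left out. Nfatc2 was -0.0937 with reference genes, -0.15 with the mean of all probe sets, and between -0.0244 and 0.15 with 1 array left out, including -0.00410. Cd247 was -0.12 with reference genes and -0.0843 with the mean, Sos1 -0.0761, Ppp3r1 -0.54 and Ppp3ca 0.12 with the mean, and Ppp3ca 0.35 without suffixes. The cause was not tested.

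The replicate numbers were not shown to pair the samples: deviations of same-numbered arrays correlated at 0.23, -0.02 and 0.16, and WT replicate 2 correlated best with HDAC11-/- replicate 3. With a replicate block, 0 members were called higher and 2 lower, and 8 were higher and 11 lower past the adjusted p. Probe sets near the bacterial controls limit what can be read for Plcg1 and the dim probe sets of Rasgrp1, Sos1 and Cd247.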
